A study of Drosophila melanogaster with 11 samples.

Results

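Gene expression was compared between antennae of aged mir-284 knockout (KO) flies and aged wild-type (WT) flies. The comparison used 5 of the 11 RNA-seq libraries of the study, the 3 libraries of WT and the 2 of KO collected 25 d after eclosion, chosen by genotype and age as the labels give them, and 11867 of the 16727 genes in the deposited table were tested. WT flies were labelled w1118, and KO flies w1118 with the mir-284 KO, a line outcrossed 7 times to w1118. How far the backgrounds of both genotypes matched was not tested. Both were aged on cornmeal-yeast-agar food, and the labels give no treatment. The other 6 libraries, 3 of each genotype at 3 d, served for the shared estimate of spread and for the comparison between ages. The tissue was the third antennal segment, and polyadenylated RNA was sequenced. The design text calls the replicates biological. Sex, the number of flies per library and the time of day of dissection are not given in the sources used here. KO 25 d columns were matched to samples by replicate number, and all KO values rest on that match.

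MicroRNAs are short RNAs that guide Argonaute proteins to matching sites, mostly in the untranslated ends of messenger RNAs, and lower the stability or translation of those messengers. miR-284 is an insect microRNA, and at the Drosophila larval neuromuscular junction it is known to act on the glutamate receptor subunits GluRIIA and GluRIIB. The third antennal segment is the main smell organ of the fly. It holds olfactory sensory neurons with their receptors and the co-receptor Orco, support cells that secrete odorant binding proteins and detoxifying enzymes, glia, cuticle and circulating hemocytes.

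The 25 d libraries held 24619699 to 37077211 counts in WT, and 55485825 and 32844144 in KO replicates 1 and 2. The antennal markers Orco, Obp83a, Obp83b, lush, Obp19d, Ir25a, Ir8a, Gr21a and Gr63a were present in each 25 d library, from at least 17.9 CPM (counts scaled to library size, with TMM normalization) for Gr21a. mir-284 itself had 0 counts in 11 of 11 libraries, WT included, so the knockout was not checked by its own transcript. Among the 11 libraries KO replicate 1 was unlike the rest, with a median correlation of 0.896 (elsewhere 0.939 to 0.964) and a TMM factor of 0.702 (elsewhere 0.978 to 1.11). In it 9.64% of counts fell on Obp19d, an odorant binding protein gene, beside 1.57% to 3.60% elsewhere. It had the most counts but the fewest genes detected, 10447 beside 11801 to 13682 elsewhere, so 0 counts in it need not mean absence. KO replicate 2 correlated at 0.948 to 0.963 with the WT 25 d libraries and at 0.913 with KO replicate 1. For this reason both KO libraries are given separately, and the counts of calls are given with and without replicate 1.

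In aged KO antennae a small set of genes showed large differences from WT. Transcripts of CG11697, CG32640, CG14395 and Cyp6a17 were absent or nearly so in KO. CG10814 and CG32581 were seen almost only in KO, and Arc1, the phagocytosis receptor gene NimC1 and the maltase gene Mal-B1 were 32.5-fold, 22.4-fold and 16-fold higher. Of 48 immune effector genes 2 were called (4.17%, beside 1.74% of all genes tested), the antimicrobial peptide genes AttA and Dro. Neither call held without KO replicate 1. The clock genes tim and vri were lower in KO, by 4.53-fold and 3.38-fold. Of 45 odorant receptor and 17 antennal ionotropic receptor genes edgeR called 0, beside 1.74% of all genes tested, so 0 in lists this short does not set them apart. DESeq2 called 3 and 1 of them, beside 1078 of all 11867 genes tested.

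By edgeR's quasi-likelihood test with Benjamini-Hochberg adjustment over all genes, 206 genes, or 1.74% of those tested, were called at an adjusted p under 0.05. Of these 117 (0.986%) were higher and 89 (0.75%) lower in KO, and 2450 genes had an unadjusted p under 0.05. The log2 difference was over 1 in size for 177 of the called genes. The KO and WT values of all 206 called genes did not overlap, which was also the case for 3906 of all genes tested (32.9%). Without KO replicate 1 the fit called 130 genes (1.03% of 12565), of which 99 were among the 206 and 31 were not. Without KO replicate 2 it called 5090 genes (40.3% of 12643), 205 of the 206 among them. All 206 kept their sign in both of these fits, which the lack of overlap had all but fixed in advance. Leaving out WT 25 d replicates 1, 2 and 3 left 90, 76 and 68 calls, and 57 genes (25 higher, 32 lower) were called whichever of the 11 libraries was left out.

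The 2 KO libraries differed in how far they lay from WT. For single libraries the difference was log2 of CPM + 0.5, minus log2 of the mean WT CPM + 0.5. The 117 higher genes had a median of 2.10 in replicate 1 and 1.31 in replicate 2, and replicate 1 was the further one for 92 of them. The 89 lower genes had medians of -1.80 and -1.73, and replicate 1 was the lower one for 57. Over all genes tested the SD of this difference was 1.14 in replicate 1 and 0.596 in replicate 2. Of the higher genes 51 and of the lower genes 48 were also called without replicate 1.

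**Figure D1:**
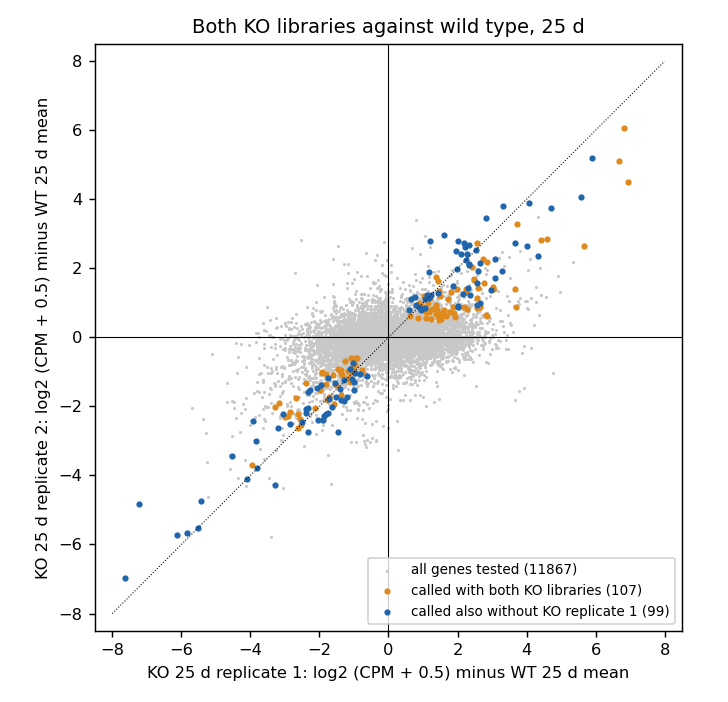
Each point is a gene, with its log2 (CPM + 0.5) minus log2 (mean WT 25 d CPM + 0.5) in KO replicate 1 (horizontal axis) and KO replicate 2 (vertical axis). Blue points are the 99 called genes that were also called without replicate 1, orange points the other 107, and grey points all 11867 genes tested. Called genes lie in the lower left and upper right, as their lack of overlap required. The grey cloud is wider along the axis of replicate 1 (SD 1.14) than along that of replicate 2 (SD 0.596).

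Among the largest decreases were transcripts that KO antennae all but lacked. CG11697 (X, 11572707 to 11573640), named Reepl1 in current RefSeq names, was at 20.5, 18.1 and 28.7 CPM in the WT libraries and had 0 counts in both KO libraries. With 3 counts over both KO libraries as the limit, KO was at least 539-fold lower. CG32640 (X, 13178005 to 13178523) was at 9.39, 7.27 and 7.35 CPM in WT, gave no counts in KO, and by the same limit was at least 200-fold lower. CG14395 (3R, 12662831 to 12673959) was at 26.4, 27.5 and 30.2 CPM in WT, while KO replicate 2 gave 2 counts and replicate 1 none, a ratio of 1034 with a 95% counting interval of 286 to 8545. Adjusted p was 0.00094, 0.00116 and 0.00106, and no left-out library ended a call of these genes. Such limits and intervals cover counting error only, not the smaller number of genes detected in KO replicate 1.

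Cyp6a17 (2R, 14873953 to 14875739), a cytochrome P450 with a known role in temperature preference, was at 103, 102 and 88.3 CPM in WT against 0 and 0.282 in KO replicates 1 and 2 (log2 fold change -9.46, SE 0.77, adjusted p = 0.00094). Its neighbour Cyp6a23 lies 0.09 kb away and went the other way, from 31.9, 29 and 26.8 CPM in WT to 76.1 and 57 in KO (log2 fold change 1.19, SE 0.19, adjusted p = 0.0131), and Cyp6a8, 11.4 kb from Cyp6a17, was at 629.7, 645 and 884 CPM in WT against 1868 and 2428 in KO (log2 fold change 1.58, SE 0.33, adjusted p = 0.0414). Cyp6a17 and Cyp6a23 are close paralogs, and how the counting split reads between them was not tested. The call of Cyp6a17 stood in every leave-one-out fit. For Cyp6a23 the call was lost when WT 25 d replicate 2 or 3, or KO replicate 1, was dropped (adjusted p 0.0618 to 0.0788), and that of Cyp6a8 in 9 of 11 fits, those without WT 25 d replicates 1 to 3, KO 25 d replicate 1, WT 3 d replicates 1 and 2 or KO 3 d replicates 1 to 3 (adjusted p 0.0564 to 0.18).

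CG10462 was at 32.3, 32.8 and 44.1 CPM in WT against 0.0257 and 0.197 in KO (log2 fold change -8.35, SE 0.94, adjusted p = 0.0024). CG9589 (Uros2 in RefSeq), uncertain because its exons overlap c(3)G on the other strand, was at 19.4, 19.9 and 23.9 CPM in WT against 0 and 0.31 in KO (log2 fold change -7.09, SE 0.89, adjusted p = 0.00479). The non-coding RNA CR44922 was at 72.6, 79.1 and 73.5 CPM in WT, at 0 in KO replicate 1 and at 2.17 CPM in replicate 2 (log2 fold change -6.13, SE 1.07, adjusted p = 0.0176). CG16886, named Vajk1, was likewise at 0 in replicate 1 and at 0.564 CPM in replicate 2, against 11.4, 11.7 and 10.1 in WT (log2 fold change -5.3, SE 0.93, adjusted p = 0.0176). KO lay below WT in each library for each of these genes, as the rule for naming them required. The calls of CR44922 (adjusted p 0.0562 to 0.0716) and CG16886 (0.0626 to 0.0788) ended whichever WT 25 d library was left out, while both were called without KO replicate 1 (0.00389 and 0.00143). Lower-level transcripts with 0 counts in KO were CG43742, CR45206 and CG12589, at least 54.9-fold, 62.7-fold and 15.3-fold lower, and their calls ended without WT 25 d replicates 2 or 3, KO replicate 1 and, for CG43742 and CG12589, also WT 25 d replicate 1 and WT 3 d replicates 1 and 2, and for CG12589 KO 3 d replicates 1 and 2 (adjusted p 0.0615 to 0.117).

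Other transcripts were seen almost only in KO. CG10814 (2R, 13375975 to 13377731) had 0 counts in the 3 WT libraries and stood at 55.9 and 33.2 CPM in KO replicates 1 and 2, which is at least 1563-fold above the limit that 3 counts over the WT libraries allow (adjusted p = 0.0176). Its call ended whichever WT 25 d library, or KO replicate 1, was left out (adjusted p 0.0626 to 0.146), and at 3 d it was low in both genotypes, at 0.993, 0.0258 and 0.0272 CPM in WT against 0.243, 0.92 and 1.94 in KO. CG32581 (X, 15796908 to 15799162), named sordd2, was at 0.0801, 0.0763 and 0.0368 CPM in WT against 33 and 20.4 in KO (log2 fold change 8.57, SE 1.03, adjusted p = 0.00388), and its call stood in every leave-one-out fit. CG9287, which overlaps Glt on the other strand, and Unc-115b, which also overlaps other genes, had 0 counts in WT and were at least 91.8-fold and 75.9-fold higher in KO. CG9287 was at 2.46 and 2.85 CPM in the KO libraries and Unc-115b at 1.51 and 2.93. The call of CG9287 ended whichever WT 25 d library, or KO replicate 1, was left out (adjusted p 0.0517 to 0.0788).

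Further genes low in WT were higher in both KO libraries. CG30091 was at 0.107, 0.203 and 0.0735 CPM in WT against 3.98 and 6.46 in KO (log2 fold change 5.29, SE 0.77, adjusted p = 0.00728), CG31157 at 0.374, 0.0763 and 0.809 against 15 and 13.1 (log2 fold change 5.09, SE 0.72, adjusted p = 0.00677), and CG40472 at 0.534, 1.5 and 0.368 against 12.6 and 17.7 (log2 fold change 4.22, SE 0.57, adjusted p = 0.00589). Replicate 2 was the higher KO library for CG30091 and CG40472, and replicate 1 for CG31157. The call of CG30091 ended without WT 25 d replicate 3 (adjusted p 0.0527), and the others stood in every leave-one-out fit. The non-coding RNA CR43264 was at 0.534, 0.432 and 0.404 CPM in WT and at 20.04 and 6.32 in KO (log2 fold change 4.84, SE 0.81, adjusted p = 0.015), and its call ended whichever WT 25 d library, or KO replicate 1, was left out (adjusted p 0.0676 to 0.0942).

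**Figure D2:**
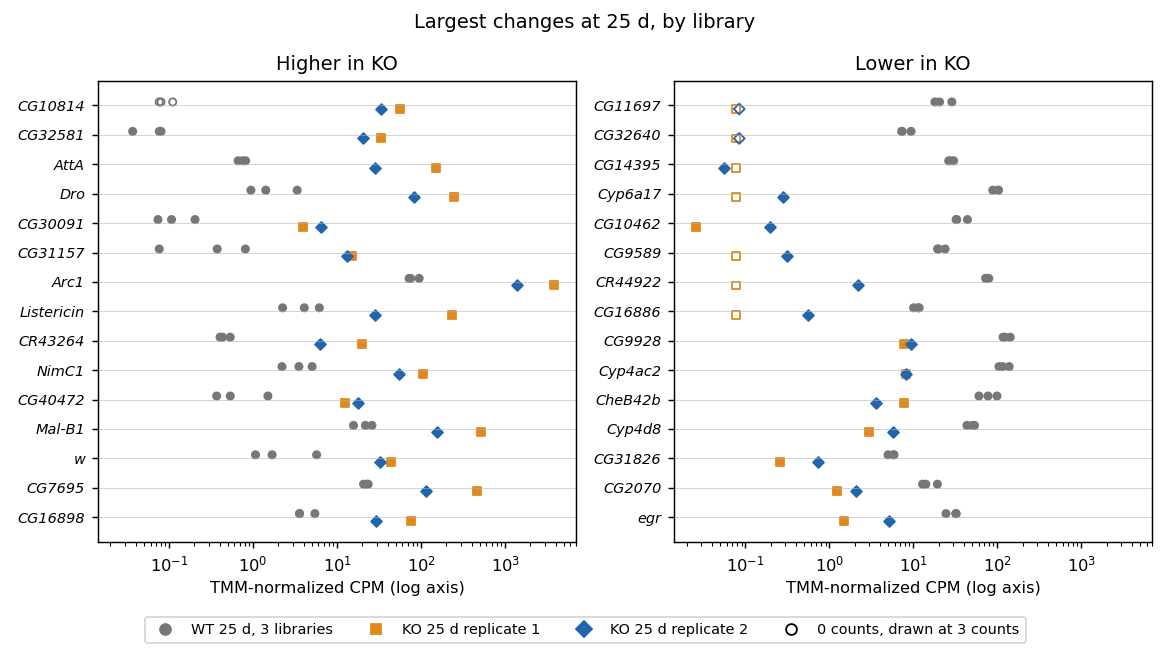
TMM-normalized CPM (log axis) in the 3 WT 25 d libraries (grey circles) and in KO replicates 1 (orange squares) and 2 (blue diamonds) for the 15 largest increases and the 15 largest decreases that reached a mean of 5 CPM in the higher group; open symbols are 0 counts drawn at the limit of 3 counts. KO and WT symbols do not overlap in any row, as the choice of rows required; AttA, Listericin and Arc1 are among the rows with KO replicate 1 well above replicate 2, while CG31157 and Cyp4ac2 have both KO libraries together.

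Arc1 (2R, 14357927 to 14360297) rose to a high level in KO. It encodes a retrotransposon-derived protein that forms capsids and carries its own messenger RNA between cells. WT libraries were at 94.8, 75 and 72 CPM against 3874 and 1370.5, a 32.5-fold difference (log2 fold change 5.02, SE 0.50, adjusted p = 0.00116), and the call stood in every leave-one-out fit, including that without KO replicate 1 (log2 4.08, adjusted p = 0.00389). Its neighbour and paralog Arc2, 1.63 kb away, was at 11.6, 10.1 and 7.79 CPM in WT against 83.8 and 26.6 in KO (log2 fold change 2.49, SE 0.42, adjusted p = 0.0153), but its call ended whichever WT 25 d library, or KO replicate 1, was left out (adjusted p 0.0587 to 0.0926). At 3 d Arc1 was at 99, 54.9 and 156 CPM in WT against 383, 463 and 379 in KO, a difference that did not pass (log2 1.98, adjusted p = 0.0527), and the change of the KO effect with age did not pass either (adjusted p = 0.516).

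Mal-B1, which encodes an alpha-glucosidase that splits sugars, was at 15.7, 26 and 21.7 CPM in WT against 521 and 155 in KO (log2 fold change 4.0, SE 0.58, adjusted p = 0.00758). Both KO libraries were far above WT, but the call was lost on dropping WT 25 d replicate 3 or KO replicate 1 (adjusted p 0.0598 to 0.0676). It was the 1 called member of the 6 maltase genes tested (16.7%, beside 1.74% of all genes). CG7695 was at 23.4, 22.5 and 20.7 CPM in WT against 459 and 115 in KO (log2 fold change 3.69, SE 0.54, adjusted p = 0.00767), a call that ended without WT 25 d replicate 2 or 3 (adjusted p 0.0533 to 0.0629). CG16898 was at 3.58, 5.44 and 3.57 against 75.8 and 29 (log2 fold change 3.64, SE 0.47, adjusted p = 0.00491) and kept its call in every leave-one-out fit.

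NimC1, a Nimrod-family receptor by which hemocytes take up bacteria, was at 5.04, 3.51 and 2.21 CPM in WT against 106 and 55 in KO (log2 fold change 4.48, SE 0.42, adjusted p = 0.00116), and its call stood in every leave-one-out fit. NimC1 was the 1 called gene of 17 hemocyte markers (5.88%, beside 1.74% of all genes tested). The 17 had a median log2 difference of -0.82 with both KO libraries, -1.27 with replicate 1 alone and -0.14 with replicate 2 alone. Their summed level was 415 to 766 CPM in WT and 408 to 612 in KO. Hml, a clotting protein gene that marks most hemocytes, was at 199.9, 132 and 95.6 CPM in WT against 59.3 and 102 in KO (adjusted p = 0.24), and eater, another phagocytosis receptor gene, was at 0 in KO replicate 1 and at 2.59 CPM in replicate 2, against 4.3, 3.0 and 1.36 in WT (adjusted p = 0.592). In whole tissue, more cells of a type and more RNA per cell cannot be told apart.

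Of 48 immune effector genes 2 were called (4.17%, beside 1.74% of all genes tested), both higher. Neither call held without KO replicate 1. AttA, an attacin, was at 0.747, 0.813 and 0.662 CPM in WT against 152 and 27.9 in KO (log2 fold change 6.91, SE 1.2, adjusted p = 0.0176). Its near-identical neighbour AttB was at 2.51, 2.95 and 2.1 against 71.1 and 6.32 CPM and was not called (adjusted p = 0.137), and how reads were shared between both copies was not tested. Dro, which encodes the antimicrobial peptide drosocin and lies next to AttA, was at 1.41, 0.94 and 3.35 CPM in WT against 245 and 82.9 in KO (log2 fold change 6.46, SE 1.29, adjusted p = 0.0355). Listericin, an antibacterial peptide gene outside that list, was at 6.14, 4.07 and 2.24 against 235 and 28.6 (log2 fold change 4.98, SE 0.97, adjusted p = 0.0324). These were all highest in KO replicate 1. Replicate 2 also lay above the 3 WT libraries, as the rule for naming these genes required. These calls ended whichever WT 25 d library, or KO replicate 1, was left out, for Dro also on dropping WT 1 or KO 2 of 3 d, and for Listericin without KO 3 d replicate 1 or 2 (adjusted p 0.0915 to 0.162 for AttA, 0.0528 to 0.251 for Dro and 0.0501 to 0.346 for Listericin). The 48 effectors had a median log2 difference of 0.95 with both libraries, 1.07 with replicate 1 alone and 0.20 with replicate 2 alone, beside -0.04, -0.20 and -0.03 over all genes tested.

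Other named decreases were smaller. egr, the fly's tumour necrosis factor ligand, was at 24.5, 32 and 32.4 CPM in WT against 1.49 and 5.16 in KO (log2 fold change -3.16, SE 0.43, adjusted p = 0.00649). CheB42b, of a family of secreted proteins found in chemosensory hairs, was at 77.4, 60.4 and 99 against 7.7 and 3.58 (log2 fold change -3.8, SE 0.53, adjusted p = 0.00649), and CG2070 at 12.9, 14.1 and 19.3 against 1.23 and 2.06 (log2 fold change -3.23, SE 0.45, adjusted p = 0.00649). egr, CheB42b and CG2070 were each called in every leave-one-out fit. CG31826 was at 5.9, 5.8 and 5.0 CPM in WT against 0.257 and 0.733 in KO (log2 fold change -3.49, SE 0.61, adjusted p = 0.0177), with the call lost whichever WT 25 d library, or KO replicate 1, was left out (adjusted p 0.0581 to 0.0788). CG9928 was at 117, 142 and 124 against 7.8 and 9.42 (log2 fold change -3.89, SE 0.83, adjusted p = 0.0486), KO values close together and far below WT, but its call ended in 8 of 11 fits, those without a 25 d library or without WT 1, WT 2 or KO 2 of 3 d (adjusted p 0.0504 to 0.4).

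Enzymes that modify foreign compounds moved in both directions. Of 83 cytochrome P450 genes tested, 5 were higher and 5 lower in KO (12.05% called, beside 1.74% of all genes). Their median log2 difference was -0.23 with KO replicate 1 alone and 0.02 with replicate 2 alone. The median log2 difference of the 83 was -0.09, so the list as a whole lay near the median of -0.04 over all genes. Cyp4ac2 fell from 105, 138 and 116 CPM to 8.08 and 8.23 (log2 fold change -3.87, SE 0.38, adjusted p = 0.00116) and Cyp4d8 from 53.5, 50.5 and 43.5 to 2.98 and 5.72 (log2 fold change -3.5, SE 0.37, adjusted p = 0.00138), and the KO libraries did not come near WT for either. Cyp6a2, linked in the fly to the breakdown of insecticides, and Cyp4p1 had log2 fold changes of -1.62 (adjusted p = 0.0111) and -1.55 (adjusted p = 0.00966). On the other side, Cyp313a4 was at 20.3, 19.9 and 16.8 CPM in WT against 100.2 and 44.9 in KO (log2 fold change 1.93, SE 0.28, adjusted p = 0.00728), Cyp6d5 at 376, 366 and 389.6 against 2933 and 980.0 (log2 fold change 2.38, SE 0.37, adjusted p = 0.0103), and Cyp6a14 rose by 2.64 on the log2 scale (adjusted p = 0.0125). The calls of Cyp6a2 and Cyp313a4 ended without WT 25 d replicate 3 (adjusted p 0.0571 and 0.0532), that of Cyp6d5 whichever WT 25 d library was left out (0.0546 to 0.069), and that of Cyp6a14 when WT 25 d replicates 1 or 3, or KO replicate 1, were dropped (0.0586 to 0.0859).

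Of 35 glutathione S-transferase genes, which encode enzymes that couple glutathione to reactive compounds, 4 were higher and 1 lower (14.3% called, beside 1.74% of all genes), and 1 was called without KO replicate 1 (where 1.03% of all genes were). GstD10, GstD9 and GstD1 lie side by side on 3R and were higher together. GstD10 was at 2.86, 1.8 and 3.71 CPM in WT against 17.9 and 9.98 in KO (log2 fold change 2.32, SE 0.36, adjusted p = 0.011), GstD9 at 46, 36.9 and 39.96 against 243 and 78.7 (log2 fold change 1.97, SE 0.35, adjusted p = 0.0192), and GstD1 at 791, 761 and 808 against 3843 and 1392 (log2 fold change 1.73, SE 0.35, adjusted p = 0.0363). These are closely related copies, so reads may have been split between them. GstE9, which overlaps imd on the other strand and is uncertain, was at 99.6, 113 and 94 against 372 and 190.0 (log2 fold change 1.46, SE 0.26, adjusted p = 0.0195), and GstS1 fell from 117, 114 and 101 to 56.4 and 63.4 (log2 fold change -0.89, SE 0.15, adjusted p = 0.0169). The calls of GstE9 (adjusted p 0.0813 to 0.117) and GstS1 (0.051 to 0.0829) ended whichever WT 25 d library, or KO replicate 1, was left out, that of GstD9 whichever WT 25 d library was left out (0.071 to 0.116), that of GstD10 when either replicate 1 at 25 d was dropped (0.0533 to 0.0554), and that of GstD1 in all fits but those without KO 25 d replicate 2 or WT 3 d replicate 3 (0.0519 to 0.204). The 35 genes had a median log2 difference of 0.49, of 0.92 with replicate 1 alone and of 0.14 with replicate 2 alone.

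Of 27 UDP-glycosyltransferase genes, whose enzymes add sugars to lipophilic compounds, 2 were higher and 2 lower (14.8% called, beside 1.74% of all genes). Their median log2 difference was -1.10 with KO replicate 1 alone and 0.26 with replicate 2 alone. Ugt86Dd (Ugt35C1 in RefSeq) fell from 203, 200.3 and 209.6 CPM in WT to 40.6 and 67.8 in KO (log2 fold change -1.92, SE 0.27, adjusted p = 0.00677). In the same gene cluster, Ugt86De was at 10.5, 7.4 and 9.34 against 21.1 and 34.8 (log2 fold change 1.62, SE 0.25, adjusted p = 0.011) and Ugt86Da at 174, 150.4 and 165 against 279 and 365 (log2 fold change 0.98, SE 0.17, adjusted p = 0.0178), both higher in each KO library than in each WT library. CG4302, uncertain because it overlaps CG44245 on the other strand, fell from 189, 184 and 184 to 81.1 and 55.5 (log2 fold change -1.44, SE 0.28, adjusted p = 0.0307). Ugt86Dd kept its call in every leave-one-out fit. The call of Ugt86De ended without WT 25 d replicate 2 or 3 (adjusted p 0.0615 to 0.0666), that of Ugt86Da whichever WT 25 d library was left out (0.0657 to 0.115), and that of CG4302 likewise and also without WT 3 d replicate 1 or 2 (0.0534 to 0.109). Among 14 antioxidant genes 1 was called (7.14%, beside 1.74% of all genes), the peroxiredoxin gene Prx2540-2. It was at 3.9, 7.02 and 8.46 CPM in WT against 41.8 and 26 in KO (log2 fold change 2.4, SE 0.34, adjusted p = 0.00674). Near-identical copies of it exist, so its reads may be shared.

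GluRIIA (2L, 5555072 to 5558994), the glutamate receptor subunit reported as a target of miR-284 at the larval neuromuscular junction, was higher in aged KO antennae. It was at 4.99, 4.58 and 3.05 CPM in WT against 19.7 and 24.8 in KO, a 5.27-fold difference (log2 fold change 2.4, SE 0.32, adjusted p = 0.00589). Replicate 2, the KO library closer to WT in general, held the higher of both values, and the call stood in every leave-one-out fit (log2 2.55, adjusted p = 0.0132 without replicate 1). GluRIIB, the adjacent subunit gene, was at 0.16, 0.178 and 0.0368 CPM in WT against 2.72 and 0.648 in KO and was not called by edgeR (log2 3.7, SE 1.04, adjusted p = 0.11). DESeq2 called GluRIIB (adjusted p = 0.00811), as did edgeR without KO replicate 2 (0.00686), while without KO replicate 1 it was far from the threshold (0.617). GluRIIA was the 1 called gene of 15 ionotropic glutamate receptor genes (6.67%, beside 1.74% of all genes tested). The median log2 difference of the 15 was -0.81, and -0.43 with replicate 2 alone.

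The eye pigment transporter gene w is mutated in w1118, which the labels of both genotypes name. It was at 1.68, 1.07 and 5.7 CPM in WT against 43.3 and 32 in KO (log2 fold change 3.77, SE 0.59, adjusted p = 0.0111). Both KO libraries lay above all WT libraries, and the call was lost when either replicate 1 at 25 d was dropped (adjusted p 0.06 to 0.0913). At 3 d w was at 2.26, 0.902 and 1.68 CPM in WT against 117, 107 and 153 in KO (log2 6.28, adjusted p = 0.00117). The change of the KO effect with age did not pass (log2 -2.51, adjusted p = 0.79). Alleles of w were not compared.

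Smell receptor genes gave no call by edgeR. Orco was at 2285, 2163 and 2424 CPM in WT against 3724 and 2107 in KO, a log2 difference of 0.35 (SE 0.48, adjusted p = 0.683) that became -0.13 without KO replicate 1 (adjusted p = 0.988). Over all 11867 genes tested, edgeR called 206 (1.74%), 2450 had an unadjusted p under 0.05, DESeq2 called 1078 and limma voom 188. Of 45 odorant receptor genes 0 were called by edgeR, with 5 at an unadjusted p under 0.05, 3 called by DESeq2 and 0 by limma voom. Of 17 antennal ionotropic receptor genes 0 were called by edgeR, with 3 at an unadjusted p under 0.05, 1 by DESeq2 and 0 by voom. The medians were -0.15 and -0.20, and with replicate 2 alone -0.04 and 0.10. Of 39 odorant binding protein genes, whose products carry odorants in the fluid around the neurons, only Obp58d was called (2.56%, beside 1.74% of all genes). It was at 0.667, 1.91 and 0.662 CPM in WT against 12.4 and 3.83 in KO (log2 fold change 2.9, SE 0.61, adjusted p = 0.0432). Its call was lost on dropping WT 25 d replicate 1 or 3, KO replicate 1, or any 3 d library but WT replicate 3 (adjusted p 0.0602 to 0.275). The abundant Obp19d was at 20325, 19030.2 and 14225 CPM in WT, 137246 in KO replicate 1 and 17216 in replicate 2, within the WT range, and was not called (adjusted p = 0.121).

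The clock genes tim and vri were lower in aged KO antennae than in aged WT antennae. tim (2L, 3493986 to 3508119), which encodes a partner of PER in the negative limb of the clock, was at 764, 1036 and 1209 CPM in WT against 198 and 245 in KO (log2 fold change -2.18, SE 0.23, adjusted p = 0.00126). vri, a repressor of Clk, was at 415, 644 and 770.4 against 185 and 175 (log2 fold change -1.76, SE 0.25, adjusted p = 0.00677). The KO libraries were close to each other and below each WT library, and both calls stood in every leave-one-out fit. They were the 2 called genes of 13 clock genes (15.4%, beside 1.74% of all genes tested). per was at 66, 97 and 94.7 CPM in WT against 39.6 and 46.7 in KO and was not called (log2 -0.99, adjusted p = 0.0805), and it overlaps CG2650 on the other strand. Clk, the transcription factor gene that vri represses, was at 28.8, 17.1 and 26.8 CPM in WT against 37.5 and 61.9 in KO (log2 1.04, adjusted p = 0.0875), and was called without KO replicate 1 (log2 1.35, adjusted p = 0.0498). cyc was at 44.4, 48.2 and 49.7 against 41.6 and 47.9 (adjusted p = 0.765). The time of day at which antennae were taken is not given in the sources used here, and its part in these differences was not tested.

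At 3 d the same comparison called 165 genes (1.39%). Its group means came from other libraries, but both comparisons came from 1 fit over all 11 libraries, so their calls were not independent. Of the 206 genes called at 25 d, 95 were called at 3 d with the same sign, which is 46.1% of the 25 d calls and 57.6% of the 3 d calls. The sign was the same at both ages for 199 of the 206 (96.6%), beside 66.8% of all genes tested. Of the 95, 58 had the larger difference at 25 d and 37 at 3 d. Leaving out 1 library moved the count of 95 to between 49 and 424, 49 on dropping the 3 d libraries WT 1, WT 2 or KO 1, 52 to 57 on dropping any WT library of 25 d or KO 2 of 3 d, and 424 without KO 25 d replicate 2. Both KO and both WT groups share one estimate of the spread.

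**Figure D3:**
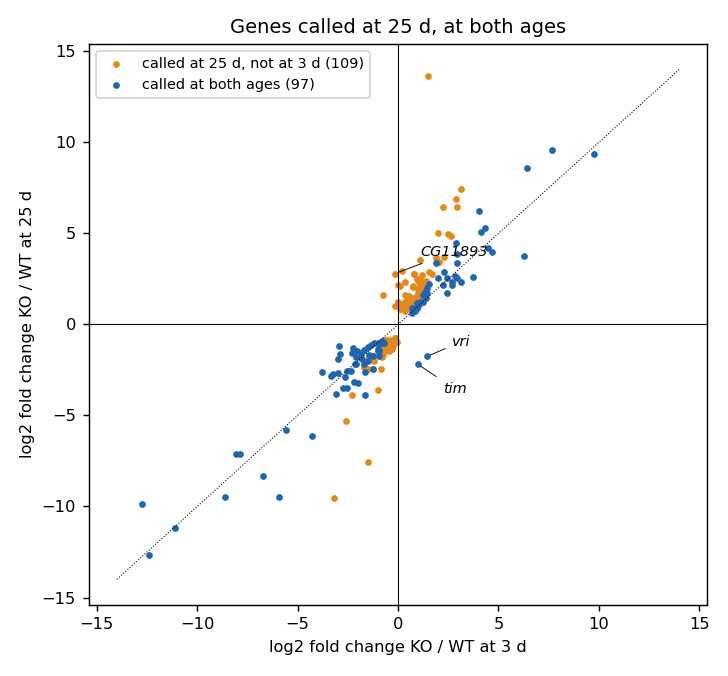
Log2 fold change of KO against WT at 3 d (horizontal axis) and 25 d (vertical axis) for the 206 genes called at 25 d; blue points are called at both ages (97), orange points at 25 d and not at 3 d (109), and the dotted line marks equal change. Most points lie in the lower left and upper right; tim and vri lie in the lower right, and CG11893 near zero at 3 d and above zero at 25 d.

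Only 3 genes (0.0253% of those tested) were called for a difference of the KO effect between the ages, with 726 at an unadjusted p under 0.05. tim was at 194, 209.9 and 206 CPM in WT against 429, 374 and 390.2 in KO at 3 d, higher in KO by 0.97 on the log2 scale (adjusted p = 0.0326), and the difference between the ages was -3.15 (SE 0.29, adjusted p = 0.00648). vri was at 125, 133 and 106 CPM in WT against 345, 343 and 306 in KO at 3 d, 1.45 higher on the log2 scale (adjusted p = 0.00836), a difference between the ages of -3.21 (SE 0.33, adjusted p = 0.00903). In KO the level of both genes thus lay above WT at 3 d and below it at 25 d, without overlap at either age. For both genes each WT library of 25 d lay above each WT library of 3 d. Each KO library of 25 d lay below each KO library of 3 d. The difference between the ages thus holds a higher level in aged WT as well as a lower level in aged KO. CG11893 (3R, 25289889 to 25291366), whose function is not annotated in the sources used here, was at 12.7, 12.9 and 16 CPM in WT against 123 and 68.9 in KO at 25 d (log2 fold change 2.79, SE 0.27, adjusted p = 0.00116), and at 10.8, 13.2 and 11.8 against 12.8, 11.1 and 7.98 at 3 d (adjusted p = 0.882). Its difference between the ages was 2.96 (SE 0.36, adjusted p = 0.0257).

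The 25 d calls of tim, vri and CG11893 stood in every leave-one-out fit, but their differences between ages did not. That of tim was lost without WT 3 d replicate 1 (adjusted p = 0.054). For vri the leave-outs that ended it were, at 25 d, WT replicate 2 and, at 3 d, WT replicate 1 and both KO replicates 1 and 2 (adjusted p 0.0506 to 0.0578), and that of CG11893 whichever library other than the 2 of KO 25 d was left out (0.0607 to 0.176). In all, 109 genes were called at 25 d and not at 3 d, among them GluRIIA (3 d log2 1.16, adjusted p = 0.0986), and for all of these except CG11893 no difference between the ages was shown.

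**Figure D4:**
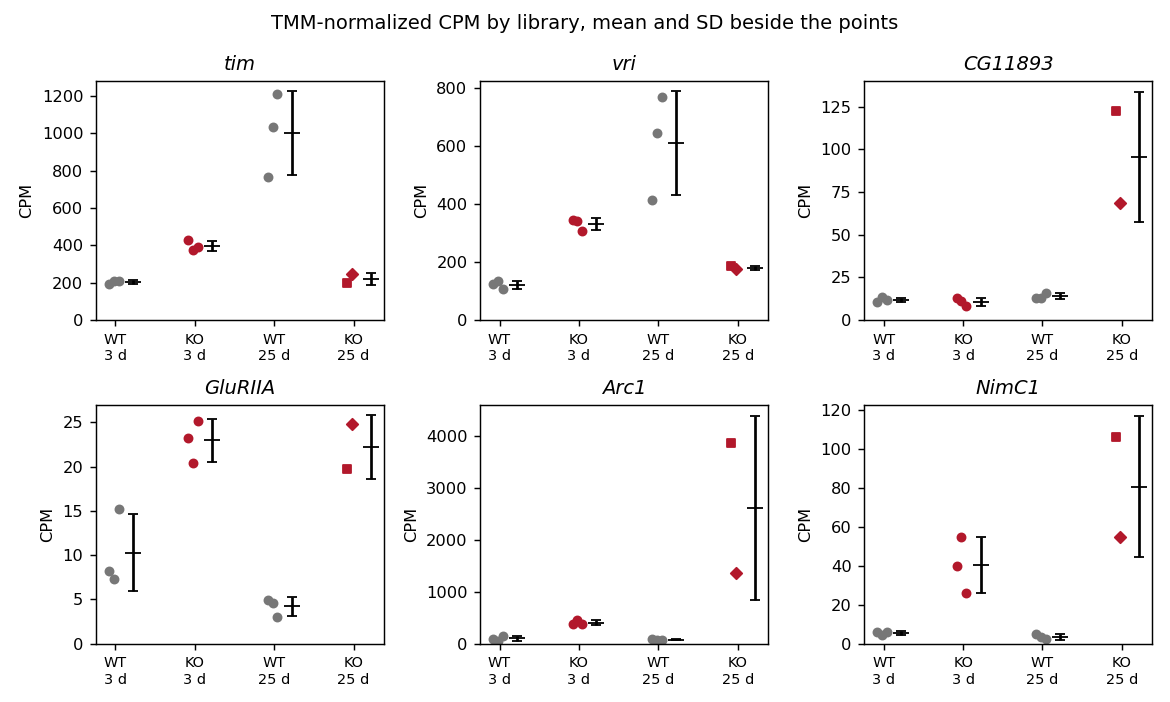
TMM-normalized CPM of tim, vri, CG11893, GluRIIA, Arc1 and NimC1 in each library of the 4 groups, WT in grey and KO in red, with the group mean and SD beside the points; in KO 25 d the square is replicate 1 and the diamond replicate 2. tim and vri have KO above WT at 3 d and below WT at 25 d, and for the other genes both KO 25 d libraries lie above the WT 25 d libraries.

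Several gene lists with no called member had higher medians in KO replicate 1 and medians near 0 in replicate 2. The 86 cytosolic ribosomal protein genes had a median log2 difference of 0.86 with both libraries, 1.42 with replicate 1 alone and -0.07 with replicate 2 alone. Their summed level was 47148 to 58430 CPM in WT, 160687 in replicate 1 and 51313 in replicate 2, which lay within the WT range. By edgeR 0 of the 86 were called, with 45 at an unadjusted p under 0.05, 16 called by DESeq2 and 0 by limma voom. The 74 mitochondrial ribosomal protein genes had medians of 0.57, 1.07 and -0.19 in the same order, with 0 called by edgeR, 25 at an unadjusted p under 0.05, 6 by DESeq2 and 0 by voom. The 73 oxidative phosphorylation genes had medians of 0.34, 0.79 and -0.22, with 0 called by edgeR, 15 at an unadjusted p under 0.05, 3 by DESeq2 and 0 by voom. The 40 proteasome genes had medians of 0.37, 0.63 and -0.01, with 0, 10, 3 and 0. The part of RNA quality in replicate 1 was not tested.

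**Figure D5:**
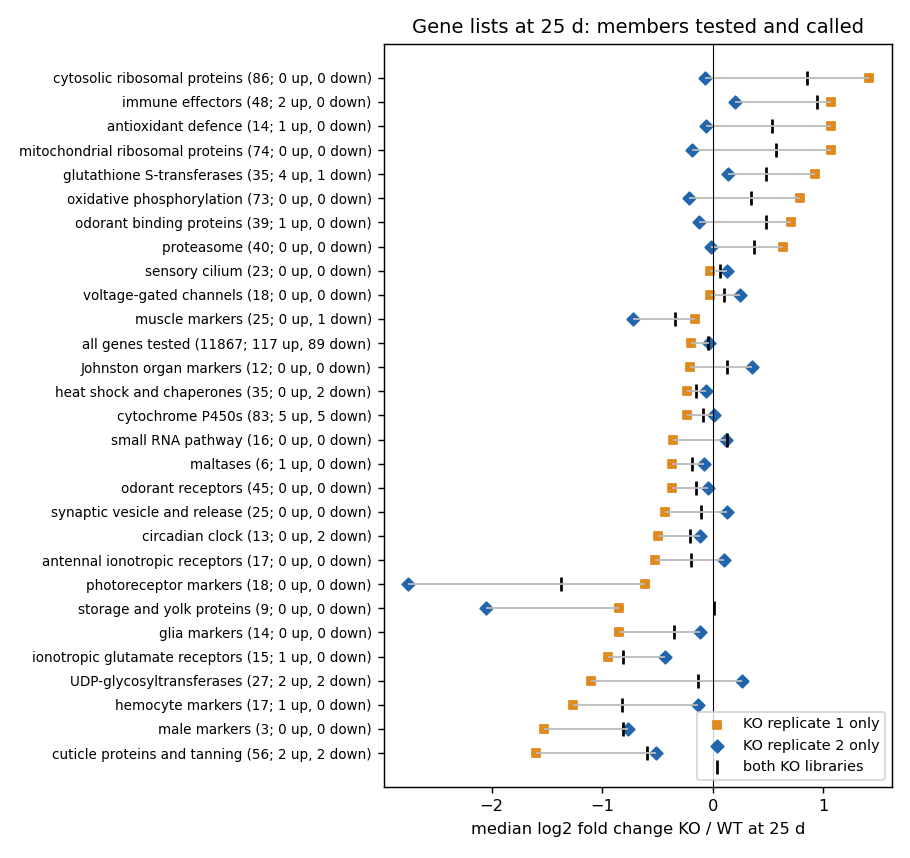
Median log2 fold change KO against WT at 25 d of the members tested in each of 28 gene lists and of all genes, from the fit of both KO libraries (black bar), of replicate 1 alone (orange square) and of replicate 2 alone (blue diamond); numbers in brackets give the members tested and those called higher and lower. Ribosomal protein genes lie at 1.42 in replicate 1 and -0.07 in replicate 2, and photoreceptor markers at -0.61 and -2.76.

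Markers of other cells and of neighbouring tissue were measured in the same libraries. Their counts stand beside those over all 11867 genes tested. There edgeR called 206, 2450 had an unadjusted p under 0.05, DESeq2 called 1078 and voom 188. Photoreceptor markers (18 tested, 0 called by edgeR, 7 at an unadjusted p under 0.05, 5 by DESeq2, 0 by voom) summed to 1962 to 7956 CPM in WT and 1227 to 2423 in KO, with a median of -1.37. ninaE, the main rhodopsin gene, was at 513, 3686 and 2524 CPM in WT against 586 and 349 in KO (adjusted p = 0.208), values that overlapped. Johnston's organ markers, of the segment next to the one sampled, summed to 1075 to 1195 CPM in WT and to 1172 and 2074 in KO replicates 1 and 2. Muscle markers summed to 981 to 1429 CPM in WT and 884 to 1412 in KO, and 4% of them were called, beside 1.74% of all genes. Of 25, 1 was called, Act88F, a flight muscle actin gene, at 18.7, 17.8 and 11 against 1.75 and 3.16 (log2 fold change -2.69, SE 0.54, adjusted p = 0.035), and its call ended whichever WT 25 d library was left out, and without KO replicate 1 or KO 3 d replicate 2 (adjusted p 0.0633 to 0.306). The 3 male-specific RNAs and genes summed to 2043 to 3272 CPM in WT and 1321 to 2763 in KO. All 3 had a negative log2 difference (median -0.81, and -1.53 and -0.77 with replicates 1 and 2 alone). By edgeR 0 were called, with 2 at an unadjusted p under 0.05, 1 by DESeq2 and 0 by voom. Storage and yolk protein genes summed to 150.5 to 1468 CPM in WT and 938 to 2594 in KO, with a median of 0.01. Of these 9, 0 were called by edgeR, with 4 at an unadjusted p under 0.05, 3 by DESeq2 and 0 by voom. Glia markers summed to 3851 to 4178 CPM in WT and 2546 to 3330 in KO, with 0 of 14 called by edgeR, 2 at an unadjusted p under 0.05, 1 by DESeq2 and 0 by voom. The part of these cells in the results was not tested.

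Single members of other lists were called. Of 56 cuticle and tanning genes 2 were higher and 2 lower (7.14% called, beside 1.74% of all genes). The cuticle protein gene Cpr64Ac was at 3.95, 3.33 and 3.05 CPM in WT against 32.9 and 12.4 in KO (log2 fold change 2.72, SE 0.36, adjusted p = 0.00582), and Cpr51A at 10.1, 11.8 and 11.7 against 47 and 21.1 (log2 fold change 1.61, SE 0.27, adjusted p = 0.0153). b, an aspartate decarboxylase gene needed for tan cuticle, fell from 27.9, 26.3 and 22.6 to 4.47 and 9.84 (log2 fold change -1.84, SE 0.37, adjusted p = 0.0355), and the chitinase gene Cht2, which overlaps CG13921 on the other strand, from 15, 15.7 and 13.6 to 8.14 and 6.77 (log2 fold change -0.99, SE 0.20, adjusted p = 0.035). Of 35 chaperone genes 2 were lower (5.71% called). Hsp60B, a mitochondrial chaperonin gene, was at 3.18, 2.85 and 2.68 CPM in WT against 0.154 and 0.31 in KO (log2 fold change -3.63, SE 0.55, adjusted p = 0.00955), and CG8258 (CCT8), a subunit of the cytosolic chaperonin, at 136, 126 and 126 against 66.6 and 85.6 (log2 fold change -0.77, SE 0.16, adjusted p = 0.0388). Cpr64Ac and Hsp60B were called in every leave-one-out fit. Cpr51A, b, Cht2 and CG8258 lost their calls whichever WT 25 d library was left out. b and CG8258 also lost them without KO replicate 1, b when the 3 d libraries WT 1, WT 2 or KO 1 were dropped, Cht2 without WT 3 d or KO 3 d replicate 1 or 2, and CG8258 without any 3 d library but WT replicate 3 (adjusted p 0.0762 to 0.0788 for Cpr51A, 0.0617 to 0.132 for b, 0.0586 to 0.147 for Cht2 and 0.0518 to 0.151 for CG8258).

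Called genes were spread over the chromosome arms, coordinates being those of dm6. On 2R 62 of 2470 genes tested were called (2.51%), on 3R 57 of 2896 (1.97%), on 2L 42 of 2152 (1.95%), on X 24 of 1963 (1.22%) and on 3L 21 of 2289 (0.917%). Within 1 Mb of mir-284 (3R, 12551515 to 12551614) 8 of 230 genes were called (3.48%), beside 49 of 2666 (1.84%) on the rest of 3R. The 8 were CG14395, 111 kb away, its neighbour Cyp313a4, the 3 GstD genes, CG31157, 2mit and CG14715. CG14395 was nearly absent in KO, while Cyp313a4, 5.32 kb from it, was higher. Among the called genes 27 pairs lay within 20 kb of each other, and 21 of them (77.8%) changed in the same direction, beside 51.0% with the same sign among the 47869 such pairs of all genes tested. Of the 206, 42 (20.4%) overlap a gene on the other strand, beside 29.4% of all genes tested. Opposite directions were seen for Cyp6a17 beside Cyp6a23, and for vri, which was lower, beside CG14024, 0.088 kb away, which was at 14.5, 11.2 and 11.7 CPM in WT against 58.7 and 85.5 in KO (log2 fold change 2.53, SE 0.36, adjusted p = 0.00677, with the call lost at adjusted p = 0.051 without WT 25 d replicate 3).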

How the data were processed

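The deposited counts are whole reads per gene, not normalized. Per the file headers, the authors ran featureCounts 1.4.5-p1 and did not use strand. The submitters' processing notes list FastQC, STAR 2.4.2a and dm6. Of 16727 genes, 4161 share exon positions with a gene of the other strand, and reads of both are mixed. One further library column, with no matching sample, was not used. Symbols were matched to RefSeq names by name and position for 16536 genes; gene length was not used.

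Counts were analysed in R 4.3.3 with edgeR 4.0.16: filterByExpr by group, TMM, and the robust quasi-likelihood test in 1 model of 4 group means over 11 libraries (common biological coefficient of variation 0.431), contrast KO 25 d minus WT 25 d. A positive log2 fold change means higher in KO, and CPM are TMM-normalized. Adjusted p-values are Benjamini-Hochberg values over all genes tested, by this test where no tool is named, and genes under 0.05 are called. The fit without a KO library has 1 KO 25 d library, which is assumed to vary like the other groups. p-values judge a difference of group means against the spread between libraries, which was estimated over all 4 groups. Scripts were tested on simulated data.

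Genes named are mir-284, w, GluRIIA, GluRIIB and Orco, the 15 largest increases and decreases among called genes with a group mean of at least 5 CPM and no overlap between groups, up to 4 called members by p of each of 28 gene lists, and up to 10 called for the difference between ages; others were chosen after their values were seen. Comparisons, lists and rules were chosen with earlier results of these data known. Alternatives were DESeq2 1.42.0, scaling by RLE or upper quartile, limma 3.58.1 voom with and without library quality weights, other filters, a replicate block, only the 25 d libraries, a 1.5-fold threshold, no overlapping genes and leaving out each library. No sequences were analysed here.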

Additional observations from a re-analysis of the deposited data

Results flagged for a closer look

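tim, vri and CG11893 were singled out because the effect of the knockout differed between 25 d and 3 d by a test of that difference (edgeR's quasi-likelihood interaction contrast, Benjamini-Hochberg adjusted over 11867 genes). For tim the KO effect at 25 d minus that at 3 d was -3.15 on the log2 scale (adjusted p = 0.00648), with each KO library above each WT library at 3 d and below it at 25 d. For vri it was -3.21 (adjusted p = 0.00903), with the same order of libraries. For CG11893 it was 2.96 (adjusted p = 0.0257), with both KO libraries above WT at 25 d and overlapping values at 3 d. No group here has over 3 libraries, so single libraries were not screened as outliers within a group.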

How the results depend on the processing

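The 206 calls at 25 d became 211 with RLE scaling, 196 with upper-quartile scaling, 188 with limma voom, 211 with no filter on low counts, 219 with a stricter one and 183 without genes overlapping another strand. DESeq2 called 1078 (620 higher, 458 lower), voom with library quality weights 25 (20 higher, 5 lower), a fit of only the 25 d libraries 20 (7 higher, 13 lower) and a 1.5-fold threshold 93 (48 higher, 45 lower). Calls shared with 3 d were 312 with DESeq2 and 21 with quality weights, beside 95. Genes called for the difference between ages were 43 with DESeq2 and 5 with the stricter filter, beside 3. Leaving out 1 library gave 68 to 5090 calls (31 to 2310 higher, 37 to 2780 lower), 49 to 424 shared with 3 d and 0 to 2987 for the difference between ages, the 0 without WT 3 d replicate 1 and the 2987 without KO 25 d replicate 2. The cause of these moves was not tested. Of the named genes Orco alone changed sign, to -0.13 without KO 25 d replicate 1. It was at 0.70 without KO 25 d replicate 2, and was called in neither fit (adjusted p = 0.988 and 0.348). Of the named genes 39 lost their call with quality weights, 39 with only the 25 d libraries, 6 with limma voom and 7 with the replicate block, with their direction kept. GluRIIB gained a call with DESeq2 and without KO 25 d replicate 2. RLE and upper-quartile scaling moved the median of all genes by less than 0.1. The split of higher and lower calls was 85 and 103 with limma voom, against 117 and 89. Deviations of same-numbered WT and KO libraries correlated at -0.0491 and -0.0347 at 25 d, and at 0.408, 0.0254 and 0.465 for replicates 1, 2 and 3 at 3 d. The deviations of the 2 KO libraries of 25 d are exact opposites, so the 25 d values could say little about pairing. At 3 d the differently numbered WT replicate 2 and KO replicate 1 correlated at 0.504, above each same-numbered pair. Not every pair was over 0.1 and the labels name no pairing, so the numbers were not taken to pair the libraries. Replicates 1 and 3 at 3 d did deviate together. With the replicate block the counts were 145 at 25 d (82 higher, 63 lower), 67 shared with 3 d and 2 for the difference between ages. Depth limits the transcripts near 0: 3 counts are 0.0762 to 0.110 CPM per 25 d library.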

Other observations

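Genes outside the lists, chosen after their values were seen, are given as single values. CG17669 (Dnaaf3, a dynein assembly factor) was at 4.43, 6.07 and 5.55 CPM in WT against 73.1 and 38.4 in KO (log2 fold change 3.38, SE 0.34, adjusted p = 0.00116), and CG8800 (ODA-Dnal1, an outer-arm dynein light chain) at 3.76, 5.72 and 6.43 against 56.5 and 21.5 (log2 fold change 2.88, SE 0.39, adjusted p = 0.00589). Both were called in every leave-one-out fit and at 3 d (adjusted p = 0.0145 and 0.0116). Of 12 Johnston's organ markers 0 were called by edgeR, with 3 at an unadjusted p under 0.05, 2 by DESeq2 and 0 by voom. Of 23 sensory cilium genes 0 were called by edgeR, with 1 at an unadjusted p under 0.05, 0 by DESeq2 and 0 by voom. The same counts over all 11867 genes tested were 206, 2450, 1078 and 188. tej, a piRNA pathway gene of the germline, was at 3.47, 2.26 and 3.09 CPM in WT against 16.3 and 17.9 in KO (log2 fold change 2.54, SE 0.34, adjusted p = 0.00589), and the non-coding RNA noe at 665, 597 and 712 against 3862 and 1975 (log2 fold change 2.15, SE 0.27, adjusted p = 0.00479); both calls stood in every leave-one-out fit.

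Among decreases, the lipase gene sxe2 was at 557, 1084 and 682 CPM in WT against 152 and 115 in KO (log2 fold change -2.54, SE 0.33, adjusted p = 0.00549), the glycolytic enolase gene Eno, which overlaps Rrp40 on the other strand, at 813, 819 and 786 against 400.0 and 329.7 (log2 fold change -1.14, SE 0.17, adjusted p = 0.0076), and zyd, a glial ion exchanger gene, at 60.8, 49 and 52.5 against 20.3 and 18.7 (log2 fold change -1.47, SE 0.18, adjusted p = 0.00388). The serpin genes Spn42Dc and Spn47C moved in opposite directions, from 19.6, 16.9 and 23.5 to 3.41 and 4.03 CPM and from 49.7, 54.5 and 61.8 to 205 and 156 (adjusted p = 0.00116 and 0.00116). The calls of sxe2, Eno, zyd and both serpin genes stood in every leave-one-out fit. TrpA1, a channel gene for heat and irritants, fell from 18.4, 16.5 and 18.9 to 2.52 and 3.44 (log2 fold change -2.59, SE 0.41, adjusted p = 0.0111), and the aquaporin gene Drip from 458, 436 and 475 to 139 and 139 (log2 fold change -1.72, SE 0.27, adjusted p = 0.011). The calls of TrpA1 and Drip ended without WT 25 d replicate 3 or KO replicate 1 (adjusted p 0.0527 to 0.0807 and 0.0527 to 0.0612).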
